A study of Homo sapiens with 9 samples.

Results

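The early growth response genes EGR1, EGR2 and EGR3, the NR4A nuclear receptor genes NR4A1, NR4A2 and NR4A3, and the immediate early response genes IER2, IER3 and IER5 were followed across RIVA cells expressing mutant BCL10 or an empty vector. These 9 genes were found by symbol among 60656 genes in the deposited count table, 1 entry each, and all 9 passed the filter on low counts in every comparison. RIVA cells are a long-used line from a human diffuse large B-cell lymphoma of the activated B-cell type (ABC-DLBCL). They were infected with lentiviral Tet-on constructs encoding a truncated BCL10 (S136X), a BCL10 with a missense change in the CARD domain (R58Q) or no insert. All 3 groups received 200 ng/mL doxycycline for 24 h, and the labels give the vector cells as BCL10 wild type. RNA-seq was done on 3 libraries per group, which the study calls biologic replicates of 1 cell line. A control without doxycycline was not analysed here, and no library came from cells given wild-type BCL10 by a construct.

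Immediate early genes are transcribed within minutes of a stimulus from factors already present in the cell, without new protein synthesis. Serum response factor with its ternary complex partners, CREB and NF-kB are among the factors that act on them, and many of the RNAs are short-lived. In B cells, signalling through the antigen receptor switches on EGR and NR4A genes. BCL10 is an adaptor protein that links that receptor to NF-kB and JNK. The samples were taken 24 h after doxycycline, so the levels describe induced cells at 1 late time and not the first response.

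Total counts ranged from 28047713 to 33122267 per library. BCL10 itself, the gene introduced, had 885 to 1268 counts in the vector libraries, 9838 to 14293 in S136X and 10117 to 10596 in R58Q. In either mutant against vector, the mutation and the higher BCL10 level therefore cannot be told apart. Summed markers of B cells lay at 2332 to 3069 CPM (read counts after scaling for library size with TMM factors) across the 9 libraries. Of the T cell markers, CD3D and CD2 had at most 2 counts in any library and CD3E at most 9, while CD8A had 81 to 215 (2.69 to 6.31 CPM). The names of the deposited columns carry a later date for all 3 R58Q libraries than for the other 6, so date and R58Q cannot be told apart. In bulk RNA, fewer cells that express a gene and less RNA per cell cannot be told apart either.

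The starts of these genes are shown first, since immediate early genes are controlled from sites near their start. RefSeq windows (GRCh38.p14) of 250 bases before an annotated start were searched for 6 of the 9 genes, in 9 windows: EGR1, EGR2, IER2, IER5, NR4A1 and NR4A3. The motifs were the CArG box bound by serum response factor, the CRE core TGACG bound by CREB, the AP-1 site TGANTCA, the kappaB consensus, the EGR site GCGNGGGCG, the NR4A site AAAGGTCA (NBRE) and the heat shock element GAANNTTC, on both strands. No matches overlapped each other. Printed below are EGR1 and EGR2, which hold CArG boxes, IER5, which rose in R58Q, and NR4A3, which holds the most CRE cores. Capitals mark the matches.
EGR1, chr5:138465229-138465478, plus strand: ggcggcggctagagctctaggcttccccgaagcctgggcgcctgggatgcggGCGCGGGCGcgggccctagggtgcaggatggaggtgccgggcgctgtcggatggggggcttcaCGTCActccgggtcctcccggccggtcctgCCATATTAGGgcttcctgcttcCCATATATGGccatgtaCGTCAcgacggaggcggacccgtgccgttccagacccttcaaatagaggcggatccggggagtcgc
EGR2, chr10:62816367-62816616, minus strand: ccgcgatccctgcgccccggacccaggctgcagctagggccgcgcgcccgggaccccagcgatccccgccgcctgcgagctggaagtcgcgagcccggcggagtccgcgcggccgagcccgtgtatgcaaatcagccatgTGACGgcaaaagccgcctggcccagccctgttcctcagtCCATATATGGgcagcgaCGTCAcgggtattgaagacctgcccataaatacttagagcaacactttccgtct
IER5, chr1:181088450-181088699, plus strand: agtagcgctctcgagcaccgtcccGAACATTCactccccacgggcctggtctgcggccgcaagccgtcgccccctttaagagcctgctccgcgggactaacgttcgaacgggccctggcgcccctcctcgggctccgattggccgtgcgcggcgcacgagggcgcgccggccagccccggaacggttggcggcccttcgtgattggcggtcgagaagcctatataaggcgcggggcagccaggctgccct
NR4A3, chr9:99821635-99821884, plus strand: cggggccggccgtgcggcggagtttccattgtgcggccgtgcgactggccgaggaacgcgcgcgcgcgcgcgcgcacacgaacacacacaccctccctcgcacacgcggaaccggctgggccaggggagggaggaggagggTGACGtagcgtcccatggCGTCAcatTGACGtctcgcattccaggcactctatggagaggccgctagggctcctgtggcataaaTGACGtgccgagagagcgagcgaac
EGR1 had 2 CArG boxes, beginning 105 and 83 bases before the start, flanked by CRE cores at 135 and 66, and an EGR site at 198. The EGR2 window shown had a CArG box at 71 between CRE cores at 110 and 54. Another EGR2 start had a kappaB match at 130. In NR4A3 there were 4 CRE cores, at 109, 91, 83 and 25 bases, and IER2 had 1 at 140. IER5 held a heat shock element at 226 and no other match, and both NR4A1 windows held none of the 7 motifs. Over all 35116 windows of this length, 1.16% held a CArG box, 21.2% a CRE core, 6.57% an AP-1 site, 9.96% the kappaB consensus, 8.41% an EGR site, 1.05% an NBRE and 5.78% a heat shock element. These matches are letters in the reference and not measured binding.

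In vector cells the 9 genes covered a wide range of levels. In RPKM, which is CPM divided by the exon length in kb, EGR1 stood highest at 24.2 ± 4.48 (SD, n = 3), followed by IER2 at 19.7, IER5 at 16.3 and NR4A1 at 13.0. IER3 came next at 8.75, above NR4A3 at 3.34, EGR3 at 2.78 and EGR2 at 2.25, and NR4A2 was lowest at 0.662 ± 0.0899. Neighbours in this order overlapped in their libraries, except that all vector libraries of NR4A1 lay above those of IER3, those of IER3 above NR4A3, and those of EGR2 above NR4A2. Among 15698 genes that passed the filter on low counts over all libraries and had a length, EGR1 lay at the 88.9th percentile of the vector level. NR4A2 lay at the 21.0th.

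**Figure D1:**
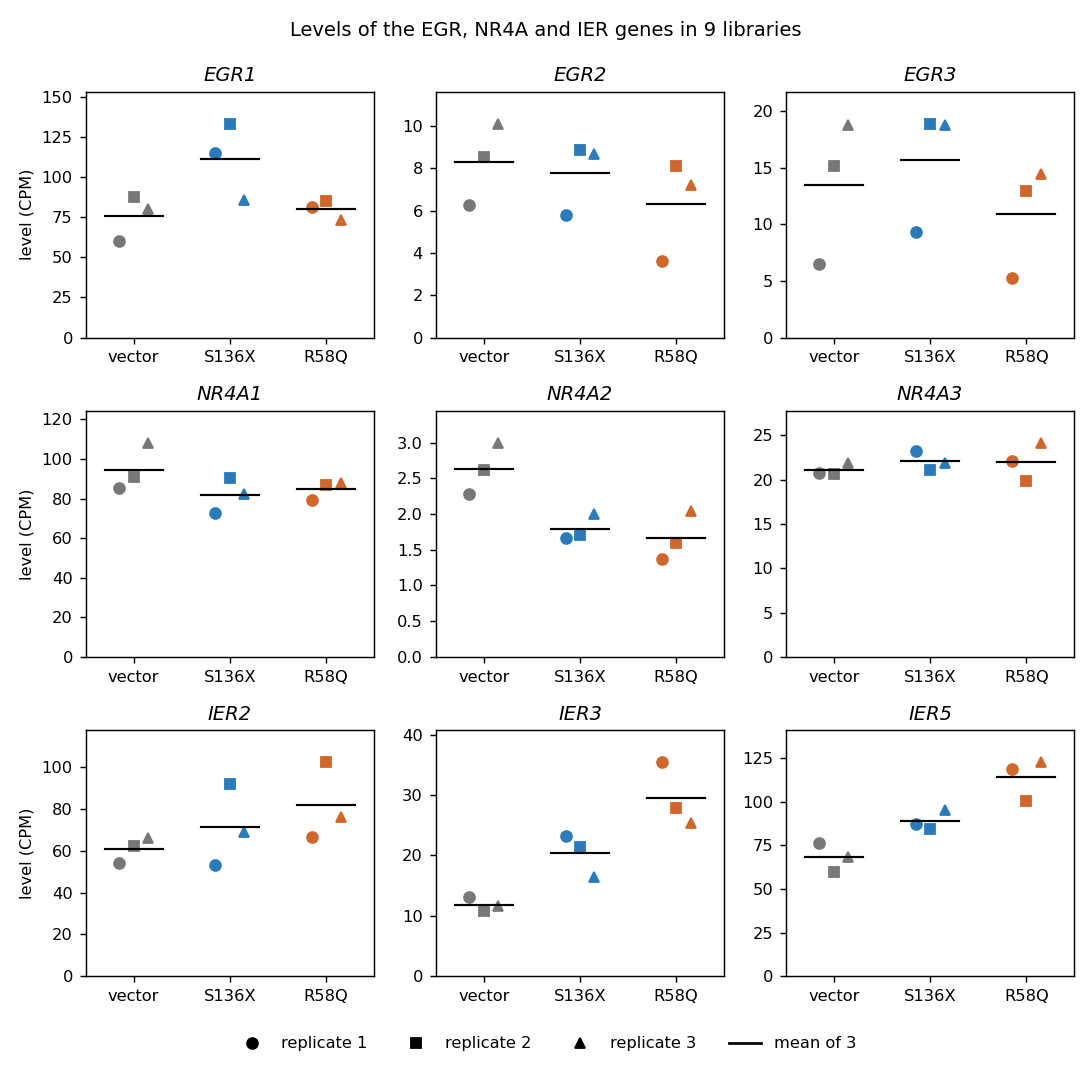
Level of each gene in CPM (vertical axis, starting at 0 and scaled per gene) in the 3 vector, 3 S136X and 3 R58Q libraries; symbols give the replicate number and lines the mean of 3. IER3 and IER5 step up from vector to S136X to R58Q without overlap, NR4A2 is lower in all 6 mutant libraries, and EGR2, EGR3 and NR4A2 have their lowest point in replicate 1 of each group.

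The IER genes held all the calls. A gene was called where the adjusted p of edgeR's quasi-likelihood test was under 0.05 and the change at least 1.5-fold. In S136X 1 of the 9 genes rose (IER3) and 0 fell, where 3.87% of 15530 genes tested were called, 2.05% higher and 1.82% lower. In R58Q 2 of the 9 rose (IER3 and IER5) and 0 fell, where 7.63% of 15435 genes were called, 4.09% higher and 3.54% lower. DESeq2 and limma-voom gave the same calls for the 9 genes, and NR4A2 was the 1 gene lower at an unadjusted p under 0.05 in edgeR, in each mutant. Counting libraries that did not overlap, 3 of 9 genes separated S136X from vector (33.3%, against 31.1% of all genes) and 4 of 9 separated R58Q from vector (44.4%, against 40.3%). The median log2 fold change of the 9 was 0.21 in S136X and 0.06 in R58Q, and the median of all genes tested was -0.02 and -0.03. Of the 9 genes, 6 had a fitted value above 0 in S136X and 5 in R58Q, called or not, where 46.9% and 46.4% of all genes did. Both comparisons use the same 3 vector libraries.

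IER3 encodes a short-lived regulator of apoptosis and ERK signalling and lies at chr6:30743199-30744548 on the minus strand. Vector libraries 1, 2 and 3 held 437, 357 and 397 counts. The S136X libraries held 686, 688 and 469. In R58Q there were 1056, 838 and 821. All 6 mutant libraries lay above all vector libraries, and every R58Q library lay above every S136X library. Mean levels were 11.9 ± 1.16, 20.4 ± 3.50 and 29.5 ± 5.23 CPM (SD, n = 3 each). IER3 rose 1.72-fold in S136X (log2 0.78, SE 0.14, adjusted p = 0.0111) and 2.49-fold in R58Q (log2 1.32, SE 0.14, adjusted p = 0.000747). The R58Q call held in each of 6 fits that left out 1 library. In S136X it held in 5 of 6 and was lost without vector replicate 2, where the log2 change was 0.73 at an adjusted p of 0.0592. It was also lost without replicate 2 of both groups (log2 0.69, adjusted p = 0.164). Of the 31-base words in the longest IER3 transcript, 25.5% also occur in other genes on either strand, the largest number in the overlapping antisense gene IER3-AS1. That gene had 154 counts over all 9 libraries, and whether the counting used strand is not given in the sources used here.

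IER5, a cofactor that promotes the activity of heat shock factor HSF1, lies at chr1:181088700-181092900 on the plus strand, directly after the window printed above. Counts were 2544, 1978 and 2322 in vector, 2583, 2719 and 2712 in S136X, and 3547, 3031 and 3968 in R58Q. On the CPM scale no groups overlapped, with means of 68.2 ± 8.17, 89.1 ± 5.57 and 114.0 ± 11.8 (SD, n = 3 each). In R58Q IER5 rose 1.67-fold (log2 0.74, SE 0.10, adjusted p = 0.00232), again in each of the 6 fits without 1 library. Leaving out replicate 3 of both groups gave a log2 change of 0.70 at an adjusted p of 0.0507, which ended the call. The S136X difference was smaller, 1.31-fold (log2 0.39, SE 0.09, adjusted p = 0.0270). This was under the 1.5-fold threshold, and its adjusted p stayed under 0.05 in 3 of 6 fits that left out a library.

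IER2, a nuclear protein induced by growth factors, had 1798, 2043 and 2249 counts in vector, 1564, 2960 and 1959 in S136X, and 1990, 3078 and 2459 in R58Q. Replicate 2 stood highest in both mutants. On the CPM scale the S136X libraries surrounded those of vector, while each R58Q library lay above every vector library by a narrow margin, the lowest at 66.69 against 66.00 CPM. The log2 difference was 0.23 in S136X (95% interval -0.16 to 0.63, adjusted p = 0.429) and 0.43 in R58Q (0.08 to 0.78, adjusted p = 0.0808), so neither was called. In R58Q, DESeq2 gave an adjusted p of 0.0213, and edgeR with the replicate number as a block 0.00782, both under 1.5-fold. The adjusted p was 0.0914 in limma-voom and 0.147 in edgeR with all 9 libraries in one fit. Of its 31-base words 30.6% occur in other genes, the largest number in the antisense gene AC011446.2, which had 403 counts in all.

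The EGR genes encode zinc finger transcription factors that bind GC-rich sites. EGR1 lies at chr5:138465479-138469303 and had 2008, 2883 and 2727 counts in vector, 3400, 4290 and 2448 in S136X, and 2431, 2563 and 2370 in R58Q. S136X libraries 1 and 2 stood above all others, and library 3 fell inside the vector range. The S136X mean was 111.5 ± 23.8 CPM against 75.9 ± 14.1 in vector and 79.9 ± 6.08 in R58Q (SD, n = 3 each). EGR1 was 1.47-fold higher in S136X than in vector (log2 0.56, SE 0.18, adjusted p = 0.0805), which missed both thresholds in the main fit. DESeq2 gave an adjusted p of 0.00542, and edgeR with the replicate number as a block 0.00993, both under 1.5-fold. The adjusted p was 0.088 in limma-voom and 0.0857 with the block in DESeq2. Without S136X replicate 3 EGR1 was called in edgeR, at a log2 change of 0.73 and an adjusted p of 0.0431. The R58Q difference from vector was 0.07 on the log2 scale (95% interval -0.24 to 0.38, adjusted p = 0.736).

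EGR2 and EGR3, which restrain lymphocyte activation among other roles, had wide spreads within every group. EGR2 counts were 208, 281 and 344 in vector, 171, 286 and 247 in S136X, and 108, 244 and 233 in R58Q. For EGR3 they were 218, 501 and 641, then 275, 609 and 535, and 158, 391 and 468. Library 1 was lowest each time and the groups overlapped for both genes. In S136X the log2 differences were -0.09 for EGR2 (95% interval -0.58 to 0.40, adjusted p = 0.827) and 0.21 for EGR3 (-0.64 to 1.06, adjusted p = 0.762). In R58Q they were -0.40 (-1.07 to 0.27, adjusted p = 0.366) and -0.31 (-1.30 to 0.67, adjusted p = 0.638). Without the replicate number in the fit, the EGR3 intervals include a 1.5-fold change in either direction. With it as a block in edgeR, EGR2 and EGR3 in R58Q had log2 differences of -0.43 (SE 0.14, adjusted p = 0.0429) and -0.31 (SE 0.09, adjusted p = 0.0255), under 1.5-fold and so not called. The block in DESeq2 gave adjusted p of 0.0853 and 0.116. In S136X the blocked edgeR values were -0.09 (SE 0.11, adjusted p = 0.612) and 0.26 (SE 0.11, adjusted p = 0.115). EGR4 completes that family and was barely expressed, at 0.328 CPM for vector, 0.618 for S136X and 0.421 for R58Q on average, and was not called.

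NR4A1, NR4A2 and NR4A3 (NUR77, NURR1 and NOR1) are orphan nuclear receptors that act without a known hormone ligand. NR4A2, at chr2:156324437-156342348 on the minus strand, was sparse, with 76, 86 and 102 counts in vector, 49, 55 and 57 in S136X, and 41, 48 and 66 in R58Q. All 6 mutant libraries lay below all vector libraries in both counts and CPM, and the mutants overlapped each other. Mean levels were 2.63 ± 0.357, 1.79 ± 0.185 and 1.67 ± 0.339 CPM (SD, n = 3 each). The log2 differences were -0.55 in S136X (SE 0.19, adjusted p = 0.111) and -0.65 in R58Q (SE 0.21, adjusted p = 0.0583), and neither passed. With the replicate number as a block, the R58Q difference of -0.66 had an adjusted p of 0.0163 in edgeR and was called lower, where 5.87% of all genes were. S136X then had an adjusted p of 0.0524. NR4A2 was the only one of the 9 genes whose fitted change was a decrease of at least 1.5-fold in R58Q.

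NR4A1, a marker of antigen receptor signalling in lymphocytes, had 2838, 2990 and 3680 counts in vector, 2139, 2904 and 2341 in S136X, and 2372, 2623 and 2850 in R58Q. Its log2 difference was -0.21 in S136X (95% interval -0.45 to 0.03, adjusted p = 0.245) and -0.16 in R58Q (-0.37 to 0.06, adjusted p = 0.264), both within 1.5-fold. NR4A3 had 692, 679 and 747 counts in vector, 686, 680 and 623 in S136X, and 661, 597 and 781 in R58Q. Its spread was the smallest of the 9 genes, with a coefficient of variation of 3.40% in vector, 4.90% in S136X and 9.79% in R58Q, except that NR4A1 and EGR1 varied less in R58Q (5.50% and 7.61%). The log2 difference was 0.07 in S136X (95% interval -0.12 to 0.25) and 0.06 in R58Q (-0.14 to 0.27), with adjusted p of 0.636 and 0.658. Of the 31-base words of NR4A1, 15.1% occur in other genes, the largest number in the overlapping gene AC025259.3.

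**Figure D2:**
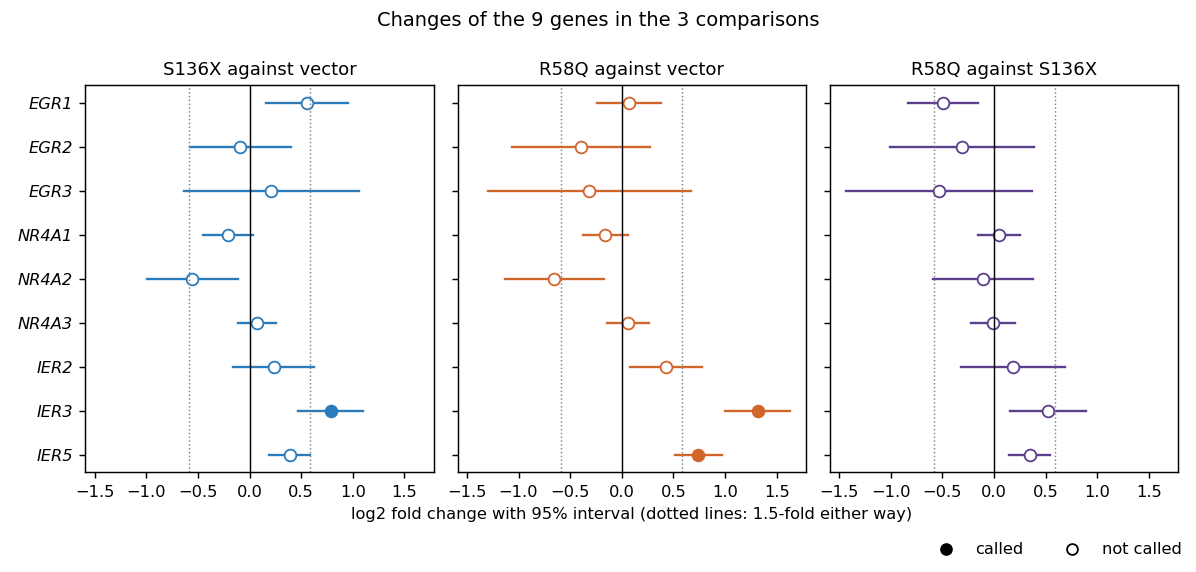
Log2 fold change (horizontal axis) of each gene in S136X against vector, R58Q against vector and R58Q against S136X; bars are 95% intervals, filled points are called and dotted lines mark 1.5-fold. IER3 is called in both mutants, IER5 in R58Q, and no gene is called between the mutants.

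Between the mutants, 0 of the 9 genes were called by edgeR, by DESeq2 or by limma-voom, where edgeR called 0.434% of 15195 genes. At an unadjusted p under 0.05 in edgeR there were 3 of the 9, where 1668 of 15195 genes had one. They were the same 3 whose libraries did not overlap (33.3%, against 17.3% of all genes not overlapping). EGR1 was lower in R58Q than in S136X by a log2 difference of -0.49 (SE 0.15, adjusted p = 0.238). IER3 was higher by 0.52 (SE 0.16, adjusted p = 0.249) and IER5 by 0.34 (SE 0.09, adjusted p = 0.160). The 95% interval ran from -0.83 to -0.15 for EGR1, from 0.16 to 0.89 for IER3 and from 0.14 to 0.55 for IER5. EGR3 had a fitted difference of -0.53 with an interval from -1.44 to 0.37. NR4A1 and NR4A3 had intervals within 0.25 of 0 on the log2 scale. DESeq2 gave EGR1 and IER5 adjusted p of 0.0393 and 0.0375 here, both under 1.5-fold. With the replicate number as a block in edgeR, 6 of the 9 genes had an adjusted p under 0.05 (EGR1, EGR2, EGR3, IER2, IER3 and IER5), where 14.6% of all genes did, and none reached 1.5-fold. EGR2 and IER2 lost this with the block in DESeq2 or with all 9 libraries in one fit, and EGR2 also with total counts only. S136X and R58Q also differ in the date in their column names.

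Spread within groups followed the replicate number. In 5 of the 9 genes (EGR2, EGR3, NR4A1, NR4A2 and IER2) library 1 was lowest in all 3 groups, and 12.9% of 15860 genes showed this. IER3 was the reverse, highest in library 1 of every group, as were 15.8% of genes. For EGR3 the mean of libraries 2 and 3 was 2.60 times library 1 in vector, 2.02 times in S136X and 2.59 times in R58Q. For EGR2 these ratios were 1.49, 1.52 and 2.11. Both are larger than the fitted change of the same gene in either mutant. For IER3 the ratios were 0.857, 0.814 and 0.751, on the opposite side of 1 and smaller than its change in either mutant. The summed level of 10 heat shock and handling stress genes was likewise highest in library 1 of each group, at 4947, 4340 and 4082 CPM in vector, 5758, 5195 and 5146 in S136X, and 5569, 5101 and 5271 in R58Q. Every mutant library exceeded every vector library in that sum. Most of it came from HSP90AA1, HSPA8 and HSPD1, with vector means of 1945, 1345 and 709 CPM. The part of this sum in the changes of the EGR, NR4A and IER genes was not tested. Of the 9 heat shock genes tested, edgeR called 0 in either mutant, with median log2 differences of 0.26 in S136X and 0.25 in R58Q. In each mutant 5 had an unadjusted p under 0.05 in edgeR (26.7% and 36.1% of all genes). HSPB1 was 1 of the 5 in S136X and was lower there (log2 -0.44). Its fitted value was also below 0 in R58Q (-0.295).

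**Figure D3:**
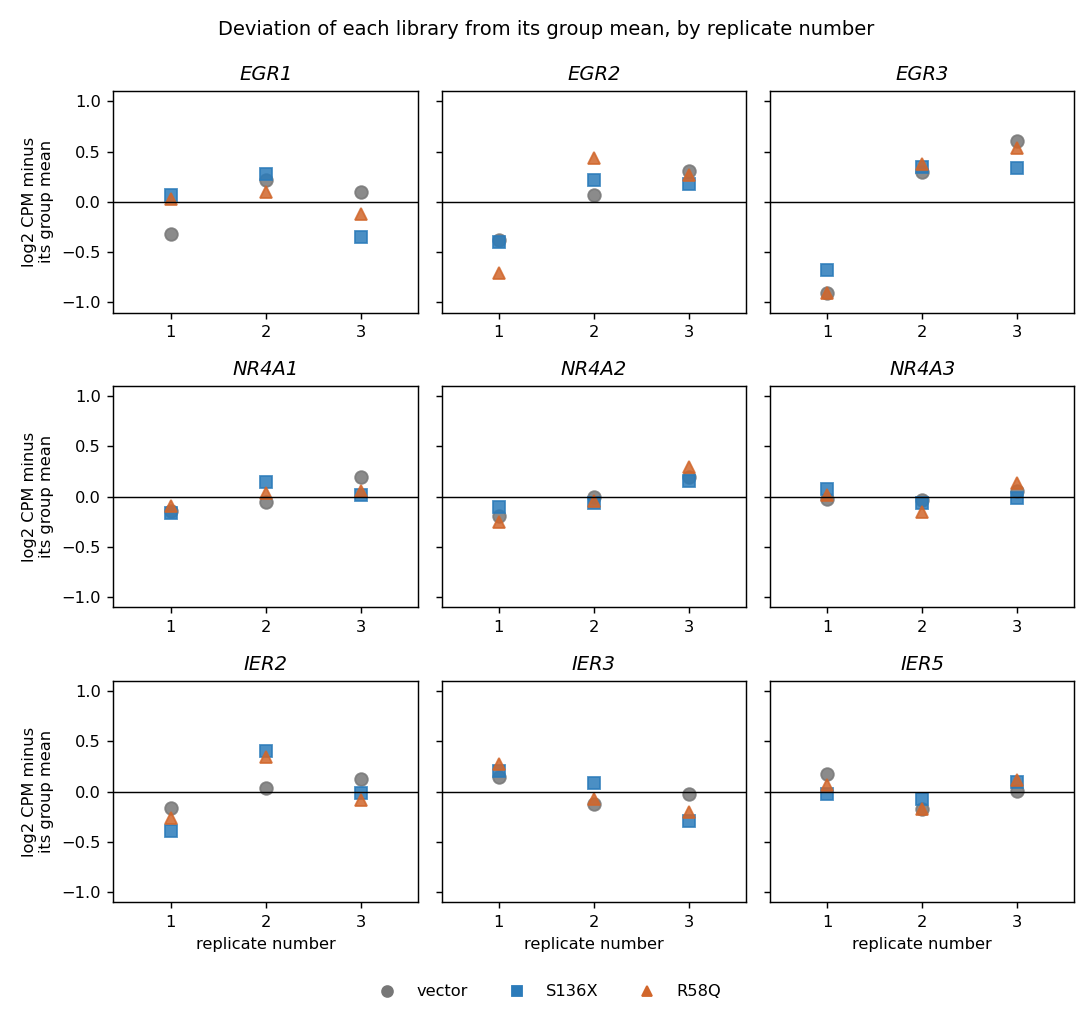
Deviation of each library's log2 CPM from its group mean (vertical axis) by replicate number (horizontal axis), for vector, S136X and R58Q. EGR2 and EGR3 sit low in replicate 1 of all 3 groups, IER3 sits high there, and NR4A3 stays close to 0.

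Pairs of these genes moved together to different degrees. Over the 9 libraries, which share groups and replicate numbers, EGR2 and EGR3 had a Pearson r of 0.92, and of 0.95 for deviations from the group means. IER3 and IER5 had an r of 0.89 over all libraries but 0.08 within groups. NR4A2 and IER3 ran opposite, at -0.92 over all libraries and -0.83 within groups. EGR1 followed no other EGR gene closely, with an r of 0.16 to EGR2 and 0.36 to EGR3. NR4A3 stayed between -0.34 and 0.46 with every other gene of the set over all libraries, and between -0.63 (IER2) and 0.56 (IER5) within groups. These values are descriptions over 9 points.

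**Figure D4:**
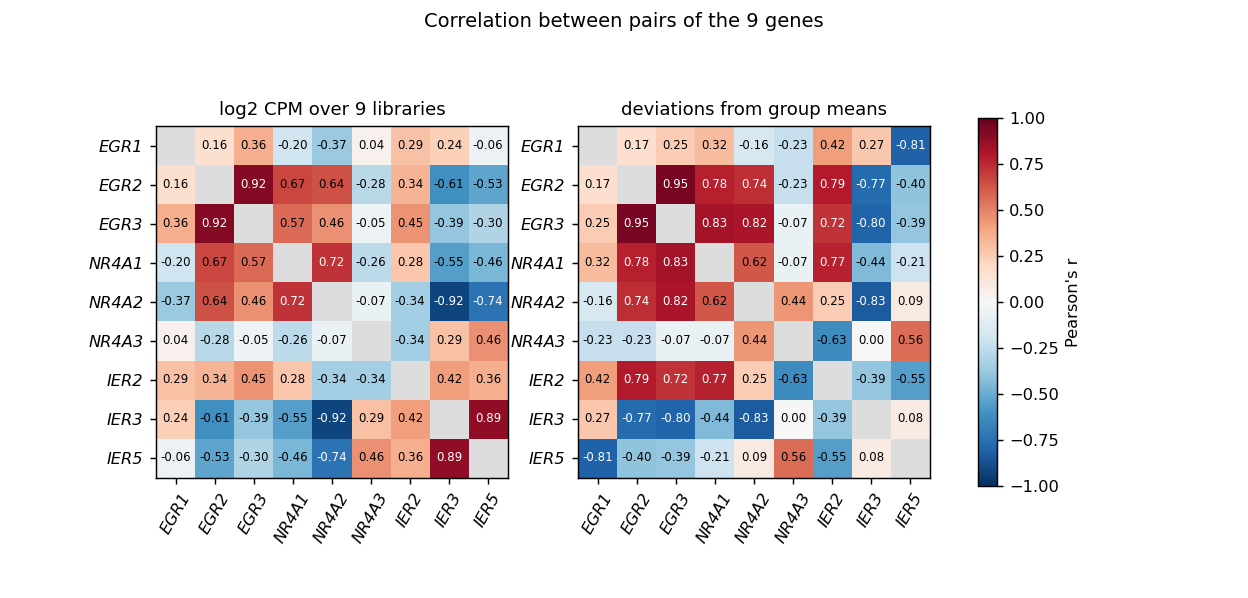
Pearson r between pairs of the 9 genes over the 9 libraries, for log2 CPM (left) and for deviations from the group means (right); red is positive and blue negative. EGR2 and EGR3 are close in both panels, while IER3 and IER5 are close only in the left one.

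Among 15859 other genes, those with the profile most like IER3 over the 9 libraries were the lncRNA AC026401.3 (r = 0.995) and POMP, a proteasome assembly factor (0.986). For IER5 they were STT3A, a subunit of the oligosaccharyltransferase (0.979), and PEF1 (0.977). IER2 was closest to PRKD2, a protein kinase D (0.991), and TRIM21 (0.981), and EGR1 to VSIG10L (0.909) and COX10 (0.899). EGR2 was nearest to CPT1A, the carnitine palmitoyltransferase of fatty acid oxidation (0.975), and ZNF252P (0.970), and EGR3 to the sulfatase gene SULF2 (0.972) and TDRKH-AS1 (0.969). The nearest genes were TNRC6C (0.981) and CROCCP3 (0.978) for NR4A2, WDR5B (0.974) and AL683807.1 (0.968) for NR4A1, and ZFP82 (0.937) and CC2D1B (0.934) for NR4A3. None of these closest genes was one of the 9. They were picked as the highest of many, so their size is a description.

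Other immediate early genes of the same cells were read beside these 9. Of 12 other transcription factors tested, JUNB rose and KLF2 fell in S136X (median log2 0.31). In R58Q, JUN, JUNB, ATF3 and MAFF rose and KLF2 fell (median 0.37). JUNB, an AP-1 subunit, went from 44.3 ± 3.70 CPM in vector to 69.6 ± 11.3 for S136X and 111.3 ± 14.7 for R58Q (n = 3 each, SD). Its log2 change of 1.33 in R58Q was close to the 1.32 of IER3. JUN and ATF3 rose by 0.88 and 1.05 in R58Q. KLF2, a regulator of lymphocyte trafficking and quiescence, fell from 14.6 ± 1.39 CPM in vector to 5.61 ± 2.14 with S136X and 5.17 ± 0.987 with R58Q (SD, n = 3). Of 20 other effector genes tested in S136X, 4 rose (PPP1R15A, SGK1, NFKBIA and TNFAIP3) and BTG2 fell. Of 21 tested in R58Q, 9 rose (those 4 with DUSP1, DUSP2, DUSP4, GADD45B and SIK1) and BTG2 fell. The medians were 0.04 and 0.10. Over all genes tested, 3.87% were called in S136X and 7.63% in R58Q, with medians of -0.02 and -0.03.

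NFKBIA, the NF-kB inhibitor that NF-kB itself induces, showed a log2 change of 0.99 in S136X and 2.03 in R58Q. It was also higher in R58Q than in S136X, by 1.03 (adjusted p = 0.0138, edgeR). Between the mutants edgeR called 2 of 21 effector genes, NFKBIA and SGK1, and 0 of the 12 transcription factors. Of those 12, 4 had an unadjusted p under 0.05 in edgeR, where 1668 of 15195 genes had one. The kinase gene SGK1 rose by 2.08 and 2.80, and DUSP4, a phosphatase of MAP kinases, by 2.20 in R58Q. DUSP4 was sparse, with 7 to 12 counts in vector, 16 to 36 in S136X and 35 to 43 in R58Q. Its log2 difference of 1.48 in S136X, at an adjusted p of 0.0503, was not called. SIK1 was near the limit of detection, with 0 to 2 counts in vector, 4 to 6 in S136X and 11 to 13 in R58Q. BTG2, an antiproliferative gene, fell by 0.68 and 0.79. Of the upstream factors and partners, 0 of 16 tested (among them SRF, CREB1, HSF1, NAB1 and NAB2) were called by edgeR in either mutant or between them, where 3.87%, 7.63% and 0.434% of all genes were, with medians of 0.03, 0.05 and -0.01. At an unadjusted p under 0.05 there were 5 in S136X and 7 in R58Q, where 26.7% and 36.1% of all genes had one. Between the mutants there was 1 of the 16, where 1668 of 15195 genes had one. Of markers of other cells, EPCAM, listed for epithelium, had 32.9 to 54.1 CPM across the libraries while KRT19 was at 0 and KRT18 had at most 28 counts, and summed myeloid markers stayed at or below 0.559 CPM. The summed fibroblast markers, mostly COL1A1 and COL1A2, ranged from 5.67 to 8.13 CPM in vector, from 12.1 to 17.7 in S136X and from 12.5 to 18.3 in R58Q. Of those 4 markers LUM was at 0 in all libraries and DCN had at most 18 counts, and the part of these transcripts in the IER3 and IER5 changes was not tested.

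**Figure D5:**
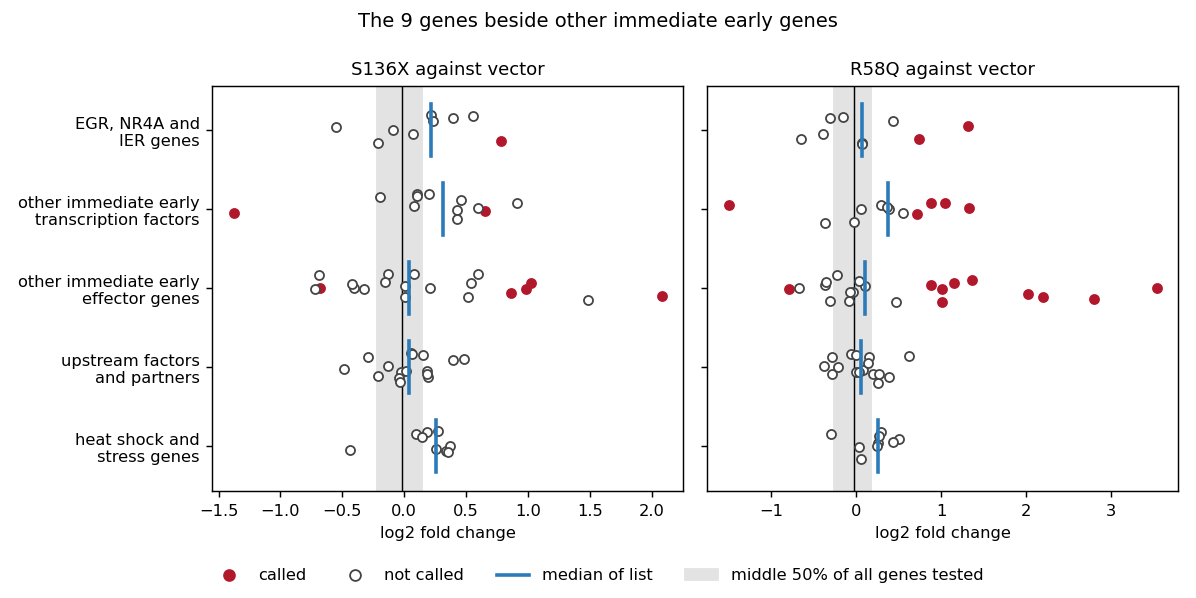
Log2 fold change (horizontal axis) of the 9 genes and of 4 lists of related genes in S136X and R58Q against vector; filled points are called, blue lines are list medians and the grey band is the middle 50% of all genes tested. IER3 and IER5 lie among the called genes of the other lists, and upstream factors and heat shock genes have none called; the point of SIK1, far right in R58Q, rests on 0 to 2 vector counts.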

How the data were processed

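RNA-seq was analysed for 9 RIVA libraries, 3 each of vector, S136X and R58Q. The authors deposited raw read counts per gene, which were used here, and beside them 9 columns of normalized counts under the same names, which were not used. The submitters' processing notes name cutadapt, STAR, Picard and hg38. The counting program is not given in the sources used here. Of the numeric columns, 0 lacked a sample, and 0 entries lacked a gene. Doxycycline was at 200 ng/mL per the treatment protocol, while the characteristics write the dose per µL.

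Each comparison was fitted on its own 6 libraries in R 4.3.3 with edgeR 4.0.16 (filterByExpr with minimum count 10 and minimum total 15, TMM, quasi-likelihood F test, Benjamini-Hochberg adjustment over all genes tested). A call needed an adjusted p under 0.05 and 1.5-fold. Each standard error was taken as the log2 change over the square root of its F value. Levels are CPM with TMM factors, log2 CPM used a prior count of 2, and levels between genes used GENCODE 29 exon lengths. The unblocked fits of edgeR, DESeq2 and limma-voom were tested on simulated counts for S136X against vector, without an effect of replicate number. The block fits were not tested in this way. Replicate pairs differed beyond sampling noise, so each library counted as 1 sample.

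The members, gene lists and motifs were chosen with earlier results of these data known. Named genes are the 9 members, the 2 most correlated genes of each, and up to 4 called genes per list and direction with the largest mean change. Other genes of those lists are named only where a count includes them, to describe the heat shock list or, for EGR4, to complete the family. Called genes of the lists beyond that rule were named after their values were seen.

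Replicates carry the numbers 1 to 3 within every group. Deviations from the group means correlated at 0.143 to 0.627 (median 0.425) for all 9 pairs of libraries with the same number. For 18 pairs with different numbers they ran from -0.459 to 0.169 (median -0.25), so the ranges overlap. R58Q replicate 2 had an r of 0.163 with vector replicate 2 and of 0.169 with vector replicate 3. The numbers were treated as pairing the libraries in the block fits only, and the main fits left them out. Alternatives were DESeq2 1.42.0, limma-voom (limma 3.58.1), other normalizations and filters, protein-coding genes only, all 9 libraries in one fit, the block, each replicate left out and other thresholds.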

Additional observations from a re-analysis of the deposited data

Results flagged for a closer look

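With the replicate number as a block, edgeR's test of the difference between R58Q and S136X gave an adjusted p under 0.05 for 6 of the 9 genes, where 14.6% of all genes tested had one. R58Q was lower for EGR1 by a log2 difference of -0.47 (adjusted p = 8.43e-06), for EGR2 by -0.33 (adjusted p = 0.0481) and for EGR3 by -0.55 (adjusted p = 0.000123). R58Q was higher for IER2 by 0.20 (adjusted p = 0.0108), for IER3 by 0.52 (adjusted p = 9.20e-06) and for IER5 by 0.34 (adjusted p = 3.21e-05). Each direction held in 3 of 3 pairs of libraries with the same number, which the blocked fit already uses, so this is no separate support. All 6 differences were under 1.5-fold, and the fit without the block gave none of them an adjusted p under 0.05. EGR1, EGR3, IER3 and IER5 kept an adjusted p under 0.05 in the other block fits run. EGR2 did not, at 0.265 in DESeq2, 0.154 with all 9 libraries and 0.0530 with total counts only. IER2 had 0.0636 in DESeq2, 0.218 with all 9 libraries and 0.00774 with total counts only. The difference between the mutants cannot be told apart from the date in the names of the deposited columns.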

How the results depend on the processing

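Over the single-gene changes, 568 of the results under an alternative kept their direction and their side of the threshold, 7 gained a call, 3 lost one and 16 changed sign. Alternatives that changed only a threshold are left out of these counts. All 9 genes had the same calls in edgeR, DESeq2 and limma-voom, with protein-coding genes only, with no filter and with at least 10 counts in every library. The number of genes called lower in R58Q went from 0 to 1 (NR4A2) with upper-quartile normalization (adjusted p = 0.0438), with all 9 libraries in one fit (adjusted p = 0.0373) and with the replicate block (adjusted p = 0.0163). The block changed no other call among the 9 genes. It raised the share of all genes called from 3.87% to 6.53% in S136X and from 0.434% to 2.94% between the mutants.

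Alternatives added after seeing the data were the block in DESeq2, with all 9 libraries and with total counts only, and 1 replicate number left out of both groups. Both of the block fits in edgeR called 1 gene lower in R58Q, and with total counts only the block also called 1 lower in S136X, NR4A2 each time. The block in DESeq2 called the same genes among the 9 as edgeR without it. The number called higher in S136X ran from 0 to 2 with 1 library left out. It was 0 at an adjusted p under 0.01 and 2 (IER3 and IER5) with no fold threshold, where 6.03% of all genes were higher. The number called higher in S136X was also 0 without replicate 2 of both groups. The number called higher in R58Q was 1 without replicate 3 of both groups.

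Signs changed only for differences that were not called. Upper-quartile normalization turned NR4A3 in R58Q to -0.002. With 1 library left out, in S136X against vector EGR2 ran from -0.252 to 0.093 and EGR3 from -0.111 to 0.542, and in R58Q against vector EGR1 ran from -0.062 to 0.198 and EGR3 from -0.633 to 0.030. Between the mutants NR4A1 ran from -0.029 to 0.122, NR4A2 from -0.276 to 0.013, NR4A3 from -0.080 to 0.053 and IER2 from -0.013 to 0.411. Without replicate 1 of both groups EGR1 in R58Q became -0.076. Between the mutants NR4A3 became 0.024 without replicate 1 and 0.021 without replicate 2 of both groups, and EGR2 in S136X became 0.007 without replicate 3 of both. The causes were not tested. Counts of 41 to 102 per library limit the precision for NR4A2, and for EGR2 and EGR3 the spread between libraries does.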
